A study of Mus musculus with 10 samples.

Results

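Gata3, Batf, Batf3, Irf4, Maf, Stat6 and Nfil3 are 7 transcription factor genes of the T helper 2 (Th2) program. They were taken by name, as genes named alone by at least 1 probe set in both deposited tables. All 7 were among the 19048 genes found in both tables, and all 7 were among the 12485 genes bright enough to be tested. Affymetrix arrays were used to read their transcripts in CD3+ T cells purified from spleen. The mice were male, on the Balb/c background and 12 weeks old, and the T cells were activated for 4 days with plate-coated antibody to CD3 plus soluble antibody to CD28, and no polarising cytokine is named in the labels. The 5 wild-type arrays (WT1 to WT5) came from WT mice, and the 5 knockout arrays (KO1 to KO5) came from KLF13 KO mice of the same background, sex, age and treatment. The labels do not say how the Klf13 allele was made. They name each sample as a separate mouse but say nothing of litters or culture days, so the p-values measure the spread between these samples.

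In the Th2 program, interleukin-4 acts through its receptor on STAT6, which enters the nucleus and induces GATA3, the factor that defines the lineage and opens the Il4-Il5-Il13 cytokine locus. BATF is an AP-1 family protein that pairs with JUN proteins and binds DNA with IRF4 at composite elements, and c-MAF drives Il4 itself. NFIL3 is a basic leucine zipper factor that tunes cytokine expression in Th2 cells, and BATF3 is a BATF relative best known for the development of cross-presenting dendritic cells. KLF13 is a zinc-finger protein of the SP/KLF family, whose members bind GC-rich and CACCC-type DNA elements.

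Values are log2 RMA signals (RMA is the background correction, normalization and probe summary used for Affymetrix arrays), and a difference is knockout minus wild type in log2 units. The arrays lay on 3 separate scales. Replicate 1 of each genotype had exon-level column medians of 5.21 and 5.23, replicates 2 and 3 had exon-level medians of 6.25 to 6.43, and replicates 4 and 5 came in a gene-level table with medians of 4.18 to 4.30. Differences were therefore taken within each of these 3 scale sets, and the fit over all 10 arrays kept the set as a block. KO3 stood apart in its set. Its interquartile range was 3.10, where the other 5 exon-level arrays had 3.43 to 3.56, and the SD of gene differences between KO2 and KO3 was 0.659, against 0.164 between WT2 and WT3. Klf13, the targeted gene, was lower in the knockout array in replicate 1 (5.41 against 6.03), in replicates 2 and 3 (6.16 and 6.07 against 6.95 and 6.89) and in replicates 4 and 5 (6.21 and 6.46 against 7.21 and 7.54). Over all arrays the difference was -0.86 ± 0.12 (SE, limma adjusted p = 0.0126), so a Klf13 signal was still measured in the knockout arrays. That call was lost without WT2, WT3, WT4, KO4 or KO5, with adjusted p up to 0.0689. Whether its probe sets lie in the deleted part is not known here.

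T cell markers were high in every array. The mean log2 signal of 11 markers, among them Cd3d, Cd3e and Cd3g, lay between 9.97 and 10.1 in the wild-type arrays of the gene-level table and between 10.07 and 10.10 in its knockout arrays. Marker lists of B cells, dendritic cells, other myeloid cells, natural killer cells, mast cells and basophils, red cell precursors and stroma had mean signals of 3.16 to 4.72 in the same 4 arrays. Of the 56 genes on these 7 lists, 22 were bright enough to be tested and none of the 22 passed over all arrays. For mast cells and basophils, which also make interleukin-4, 4 of 8 markers were bright enough to be tested and the list mean was 4.04 to 4.33 in wild type and 4.26 to 4.28 in knockout. Kit of that list was higher in replicates 4 and 5 alone (0.75, limma adjusted p = 0.0215). Among the untested markers, Ly6g, a neutrophil marker, was lower in the knockout in all 3 sets. Its signal was 6.21 and 6.28 in WT4 and WT5 and 3.96 and 3.85 in KO4 and KO5, a difference of -2.34, and the differences in replicate 1 and in replicates 2 and 3 were -0.88 and -0.18. Other untested markers of the same list did not share this drop. In replicates 4 and 5, S100a8 was at -0.043, S100a9 at 0.020, Mpo at -0.34 and Lyz2 at 0.55. Lyz2 was higher in the knockout in all 3 sets. The part of cells other than T cells in the results was not tested. RNA came from bulk cultures, in which fewer cells of a type and less RNA per cell cannot be told apart.

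The 300 bases around the annotated start sites (250 before and 50 after, from RefSeq, GRCm38.p6) were available for 6 of the 7 genes. The promoters of Gata3 and Batf are shown because these 2 genes had the lowest differences over all arrays, and that of Batf3 because it is the BATF relative that was not lower over all arrays. Capitals mark GGGCGG and CACCC on either strand. The windows are chr2:9878551-9878850 (minus strand) for Gata3, chr12:85686470-85686769 (plus strand) for Batf and chr1:191098164-191098463 (plus strand) for Batf3.
Gata3: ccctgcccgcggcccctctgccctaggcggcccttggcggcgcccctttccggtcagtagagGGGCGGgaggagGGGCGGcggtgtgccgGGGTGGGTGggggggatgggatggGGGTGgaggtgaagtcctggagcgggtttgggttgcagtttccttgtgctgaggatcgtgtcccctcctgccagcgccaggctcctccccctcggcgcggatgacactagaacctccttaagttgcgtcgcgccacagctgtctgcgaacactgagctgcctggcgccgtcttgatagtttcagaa
Batf: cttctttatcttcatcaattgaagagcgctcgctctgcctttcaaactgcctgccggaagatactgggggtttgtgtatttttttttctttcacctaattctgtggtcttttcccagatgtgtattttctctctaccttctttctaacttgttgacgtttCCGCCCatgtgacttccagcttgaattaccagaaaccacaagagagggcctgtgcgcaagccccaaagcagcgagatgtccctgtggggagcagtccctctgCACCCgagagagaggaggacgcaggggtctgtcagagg
Batf3: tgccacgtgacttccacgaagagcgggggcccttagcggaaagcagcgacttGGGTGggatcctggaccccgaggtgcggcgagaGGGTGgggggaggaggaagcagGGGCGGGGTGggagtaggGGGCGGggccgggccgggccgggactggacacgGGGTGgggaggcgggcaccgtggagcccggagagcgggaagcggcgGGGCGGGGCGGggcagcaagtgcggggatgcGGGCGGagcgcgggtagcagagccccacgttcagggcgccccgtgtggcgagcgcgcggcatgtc
GGGCGG, the GC box core, occurred 2 times in the Gata3 window, 1 time in Batf and 5 times in Batf3. CACCC occurred 3 times, 1 time and 4 times in the same order. With CTCCC counted as well, 2 matches in Gata3 and 3 in Batf3 shared bases with a match of another motif. Matches of the same motif also shared bases, such as CACCC at -160 and -156 from the Gata3 start site. The same held for GGGCGG at -46 and -41 in Batf3 and at -162 and -157 in Nfil3. The counts are therefore not counts of separate sites. The GC box core was also in the windows of Irf4 (2 matches) and Nfil3 (9 matches) but not in that of Stat6, which held 2 CACCC matches, against 1 in Irf4 and 0 in Nfil3. Of 32851 promoter windows of this length, 35.7% held GGGCGG and 57.5% held CACCC on either strand. CTCCC was in 71.0% of all windows and in 5 of the 6 members' windows, while TGANTCA, the AP-1 element, was in 7.81% of all windows and in none of the 6. The Batf3 window held more GC box and CACCC matches than the Gata3 and Batf windows. It held fewer GC box matches than the window of Nfil3 but more CACCC matches. G and C made up 75.7% of the Batf3 window, 67.3% of Gata3, 49.7% of Batf and 81.7% of Nfil3. The share was 61.0% in Irf4 and 57.3% in Stat6, and the median of all windows was 52.7%. These are matches of letters and say nothing of binding. Any relation of the counts to the differences between genotypes was not tested.

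Across the 7 genes, Gata3, Batf, Irf4 and Nfil3 fell in knockout T cells, to between 44.3% and 57.3% of the wild-type signal. Stat6 and Maf had lower values that did not pass the test, and Batf3 was not lower over all arrays. In the fit over all 10 arrays, 4 of the 7 genes (57.1%) passed at a limma adjusted p under 0.05, all lower. Of the 12485 tested genes 0.585% passed in either direction, 0.489% lower and 0.0961% higher. At an unadjusted p under 0.05, 6 of the 7 (85.7%) were lower, against 12.8% of all tested genes. In 5 of the 7 (71.4%), every knockout array lay below every wild-type array in each scale set, against 10.8% of all tested genes. The median difference of the 7 was -0.80, against -0.097 for all tested genes, of which 63.5% were lower in the knockout. The calls for Gata3 and Batf were the firmer ones, while those of Irf4 and Nfil3 depended on the processing, as given with each gene.

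**Figure D1:**
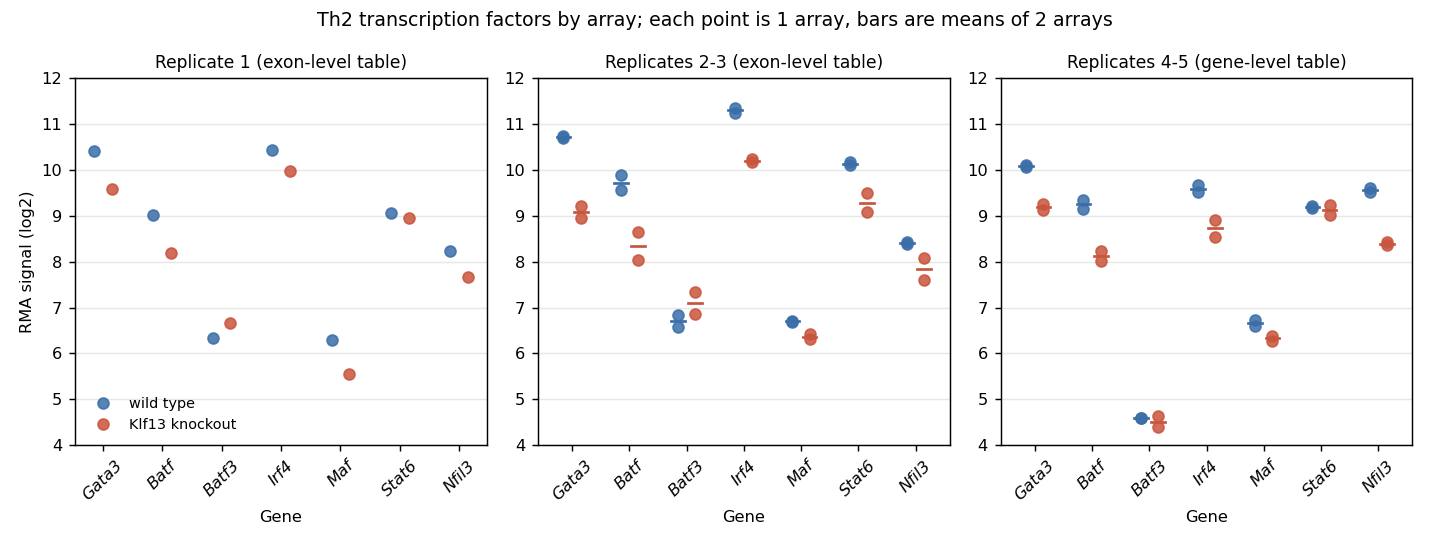
Log2 RMA signal (y axis) of the 7 transcription factor genes (x axis) in each array, with 1 panel per scale set, blue points for wild type, red points for Klf13 knockout and bars for the means of 2 arrays. Gata3, Batf, Irf4, Maf and Nfil3 have every red point below every blue point in all 3 panels, whereas the Batf3 points overlap in replicates 4 and 5, and signals are not comparable between panels.

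Stat6, the factor that carries the interleukin-4 signal, did not pass. In replicate 1 its signal was 9.06 in wild type and 8.95 in knockout. In replicates 2 and 3 it was 10.11 and 10.18 in wild type and 9.49 and 9.08 in knockout, and in replicates 4 and 5 it was 9.18 and 9.22 in wild type and 9.02 and 9.24 in knockout. The knockout arrays were therefore below wild type in replicates 2 and 3, and the groups overlapped in replicates 4 and 5. Of all tested genes, 43.1% had every knockout array below every wild-type array in replicates 2 and 3 and 26% in replicates 4 and 5. The differences within the sets were -0.11, -0.86 and -0.069, and the fit over all arrays gave -0.39 ± 0.16 (SE, limma adjusted p = 0.297, 95% interval -0.75 to -0.04). The difference of -0.86 in replicates 2 and 3 stood beside a median of -0.78 for the brightest 5% of genes in the same arrays, a class to which Stat6 belongs. A test of whether the difference itself varied between scale sets gave an unadjusted limma p of 0.0407 and an adjusted p of 0.804, where 6.08% of all tested genes had an unadjusted p under 0.05.

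Gata3, which defines the Th2 lineage, was lower in all 5 knockout arrays. Replicate 1 gave 10.41 in wild type and 9.58 in knockout. Replicates 2 and 3 gave 10.71 and 10.74 in wild type and 9.23 and 8.97 in knockout, and replicates 4 and 5 gave 10.08 and 10.10 in wild type and 9.13 and 9.26 in knockout. No knockout array reached the wild-type range of its set, and in the sets with 2 arrays a genotype the gap was wider than the spread within the groups. The fit gave -1.17 ± 0.15 (SE, limma adjusted p = 0.00827, 95% interval -1.51 to -0.84), which is 44.3% of the wild-type signal. In replicates 4 and 5 alone the difference was -0.89 ± 0.12 (SE, limma adjusted p = 0.0108), and in replicates 2 and 3 alone it was -1.63 with a limma adjusted p of 0.297. Replicates 2 and 3 called 0 of 12485 genes, with 9.52% at an unadjusted p under 0.05, so no gene passed there. The variation of the Gata3 difference between sets had an unadjusted limma p of 0.0251 and an adjusted p of 0.797. Leaving out any 1 of the 10 arrays kept Gata3 past the threshold, at -1.26 to -1.06.

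Batf, the AP-1 partner of IRF4, was lower to about the same extent. Its signal in replicate 1 was 9.01 in wild type and 8.19 in knockout. It was 9.56 and 9.89 in wild type and 8.65 and 8.05 in knockout in replicates 2 and 3, and 9.36 and 9.14 in wild type and 8.02 and 8.23 in knockout in replicates 4 and 5. The groups did not overlap in any set, although KO2 and KO3 lay farther apart than the 2 wild-type arrays beside them. The difference was -1.16 ± 0.15 (SE, limma adjusted p = 0.00827, 95% interval -1.50 to -0.83), or 44.6% of wild type, and it was -0.82, -1.38 and -1.12 in the 3 sets. Replicates 4 and 5 alone gave an SE of 0.14 and a limma adjusted p of 0.00669. The call was just lost without WT4 (limma adjusted p = 0.0512) and without KO4 (limma adjusted p = 0.0505), and Batf passed without each of the other arrays.

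Irf4, which binds with BATF and rises with the strength of T cell receptor signalling, had the third lowest difference in replicates 2 and 3. In replicate 1 it was at 10.45 in wild type and 9.97 in knockout. Replicates 2 and 3 had 11.24 and 11.36 in wild type and 10.17 and 10.25 in knockout, and replicates 4 and 5 had 9.53 and 9.67 in wild type and 8.92 and 8.53 in knockout. Here too each knockout array was below the wild-type arrays of its set. The difference was -0.88 ± 0.13 (SE, limma adjusted p = 0.0173, 95% interval -1.17 to -0.59), or 54.3% of wild type, and replicates 4 and 5 alone gave -0.87 ± 0.15 (SE, limma adjusted p = 0.0231). In replicates 2 and 3 its -1.09 stood beside the median of -0.78 for genes of like brightness, and in replicates 4 and 5 its -0.87 stood beside a median of -0.048. The call over all arrays was lost without WT2, WT3, WT4, WT5, KO4 or KO5, where the adjusted p reached at most 0.0930. It was also lost after quantile normalization (-0.63, adjusted p = 0.0629) and after cyclic loess (-0.49, adjusted p = 0.205), each applied within the scale sets. The call in replicates 4 and 5 alone was lost without KO5, with an adjusted p of 0.0703.

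Nfil3 differed most in replicates 4 and 5. Its signal was 9.60 and 9.52 in WT4 and WT5 and 8.36 and 8.44 in KO4 and KO5. In the exon-level arrays it was 8.23 in WT1 and 7.68 in KO1. WT2 and WT3 had 8.44 and 8.38, and KO2 and KO3 had 7.61 and 8.08. All 5 knockout arrays lay below their wild-type arrays, and KO3 was the one closest to them. The 3 differences were -0.55, -0.57 and -1.16, and the fit over all arrays gave -0.80 ± 0.15 (SE, limma adjusted p = 0.0389, 95% interval -1.12 to -0.48), or 57.3% of wild type. Replicates 4 and 5 alone gave -1.16 ± 0.12 (SE, limma adjusted p = 0.00354), the lowest difference of the 7 genes in that set. The call over all arrays held without KO3 and was lost without each of the other 9 arrays, with adjusted p up to 0.161. It was lost as well after quantile normalization (-0.69, adjusted p = 0.151) and after cyclic loess (-0.65, adjusted p = 0.253). In replicates 4 and 5 alone Nfil3 passed under those settings and without any 1 array.

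Maf, the activator of Il4, was slightly lower in all 5 knockout arrays without passing the test. Replicate 1 gave 6.29 in wild type and 5.54 in knockout. Replicates 2 and 3 gave 6.72 and 6.69 in wild type and 6.42 and 6.32 in knockout, and replicates 4 and 5 gave 6.73 and 6.61 in wild type and 6.27 and 6.38 in knockout. The groups did not overlap, and the largest gap was that of the single pair in replicate 1. The fit gave -0.42 ± 0.11 (SE, limma adjusted p = 0.158, 95% interval -0.67 to -0.17), or 74.7% of wild type. Without KO3 the adjusted p was 0.0371 at a difference of -0.42, and without each other array Maf did not pass.

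Batf3 had no settled direction. Its signal was 6.33 in WT1 and 6.67 in KO1. It was 6.83 in WT2, 6.57 in WT3, 6.86 in KO2 and 7.34 in KO3, and it was 4.60 and 4.59 in WT4 and WT5 against 4.62 and 4.39 in KO4 and KO5. The knockout arrays were above wild type in the exon-level table and on both sides of it in the gene-level table, where Batf3 was near the middle of all genes by brightness (percentile 48.1). The fit gave 0.19 ± 0.14 (SE, limma adjusted p = 0.490), and its 95% interval of -0.12 to 0.50 does not reach the intervals of Gata3, Batf, Irf4, Maf or Nfil3. Batf and Batf3 were compared in this way after their values were seen.

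**Figure D2:**
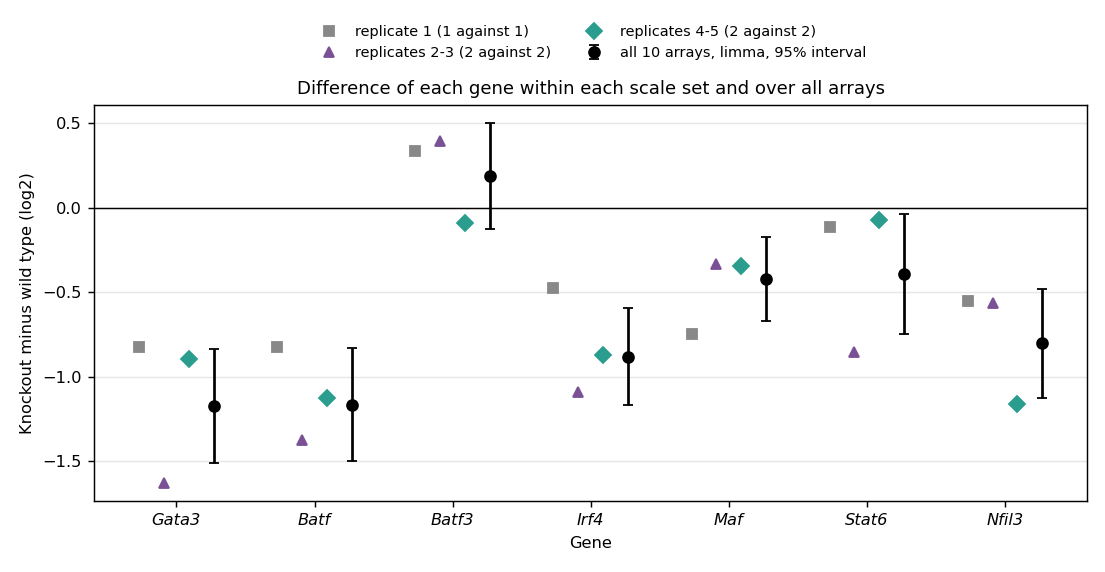
Knockout minus wild type in log2 units (y axis) for each of the 7 genes (x axis), as differences within replicate 1, replicates 2-3 and replicates 4-5 and as the limma estimate over all 10 arrays with its 95% interval. Gata3 and Batf lie lowest, at -1.17 and -1.16, Stat6 spreads from -0.86 to -0.069 between sets, and the Batf3 interval includes 0.

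The order of the 7 differences varied between sets. Batf was lowest in replicate 1 and Gata3 in replicates 2 and 3, while Nfil3 was lowest in replicates 4 and 5. Batf3 was highest in both exon-level sets and Stat6 in replicates 4 and 5. Over the 10 arrays, Gata3 and Batf were the closest pair of the 7, with a root mean square difference of 0.160 after each value was taken relative to its set's mean. Gata3 and Batf3 were farthest apart, at 0.762. The genes most like each member by the same measure were Azin2 (0.079), Il2ra (0.134) and Ccr4 (0.139) for Gata3. Batf was closest to Gpm6b (0.117), Ero1a (0.133) and Azin2 (0.136), and Irf4 to Rbpj (0.140), Dennd3 (0.145) and Ddt (0.149). For Nfil3 they were Prnp (0.129), S100a6 (0.163) and Bnip3 (0.170), for Maf Adamtsl4 (0.061), Plod1 (0.091) and Dffb (0.095), for Stat6 Abca3 (0.040), Idh3b (0.042) and Itpk1 (0.045), and for Batf3 Map2k3os (0.045), Ankdd1b (0.046) and Lgals12 (0.056). Small values arise easily for genes that vary little, such as Batf3.

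The exon-level table also gave 53 single probe sets for the 7 genes, which share arrays and are not replicates. Of these, 42 (79.2%) were lower in the knockout in replicate 1, 44 (83.0%) in replicates 2 and 3, and 37 (69.8%) in both. The shares of all 169103 tested probe sets were 52.4%, 62.9% and 33.9%. Lower values were more common among bright probe sets, with 78.5% lower in replicates 2 and 3 at a mean signal of 8 to 10 and 87.9% at 10 to 11, and 44.7% and 68.6% of these classes were lower in both. The 44 of 53 in replicates 2 and 3 is thus near the share of all probe sets of such brightness. None passed a limma test over these probe sets, of which 0% passed, and 17 of the 53 were lower at an unadjusted p under 0.05, against 3.65% of all. Batf was lower in both sets on 4 of 4 probe sets and Gata3 on 5 of 6, with differences in replicates 2 and 3 of -1.82 to -1.04 for Batf and of -2.30 to 0.20 for Gata3. The exception was Gata3 probe set 10479987, which read 10.38 in WT2, 10.31 in WT3, 9.84 in KO2 and 11.24 in KO3. Irf4 was lower in both sets on 8 of 10 probe sets, Stat6 on 17 of 24, Nfil3 on 2 of 3 and Maf on 1 of 2, counts to be read against the same shares. Batf3 was lower in both sets on 0 of 4, with differences of 0.16 to 0.72 in replicates 2 and 3. The Nfil3 exception, probe set 10409281, read 6.80 in KO2 and 9.17 in KO3, against 7.35 in WT2 and 7.36 in WT3. Both exceptions thus came with a high value in KO3. Among all tested probe sets, 15.7% were at least 1 log2 unit higher in KO3 than in KO2 and 25.2% at least 1 lower. Among the 53, 6 were higher and 6 were lower by that much.

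Brightness moved with the difference in the exon-level arrays. In replicates 2 and 3 the median difference over all probe sets was 0.10 for those with a mean signal under 6, -0.48 from 8 to 10, -0.71 from 10 to 11, -1.30 from 11 to 12 and -1.79 at 12 or above. In replicate 1 the median was -1.02 at 12 or above and -0.044 from 8 to 10. Gata3, with probe sets between 9.47 and 10.2, had 5 of 6 differences at or below -1.55 in replicates 2 and 3, lower than the medians of their classes. The 3 Irf4 probe sets above 12 had differences of -2.11, -2.39 and -1.79, against that class's median of -1.79, and several Stat6 probe sets lay near the medians of their classes. At gene level in replicates 2 and 3, the differences beside the medians of genes of like brightness were -1.63 against -0.78 for Gata3, -1.38 against -0.58 for Batf, -0.57 against -0.51 for Nfil3, -0.33 against 0.11 for Maf and 0.40 against -0.39 for Batf3. In replicates 4 and 5 these medians lay between -0.048 and 0.015, and Gata3, Batf, Irf4 and Nfil3 were at -1.16 to -0.87. The part of brightness in the exon-level differences was not tested beyond the normalization alternatives. T cell markers differed in the same way between the tables, with a median difference of -0.67 in replicates 2 and 3 (Cd3g at -1.80) and 0.022 in replicates 4 and 5 (Cd3g at -0.014), and 0 of 11 passed over all arrays.

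**Figure D3:**
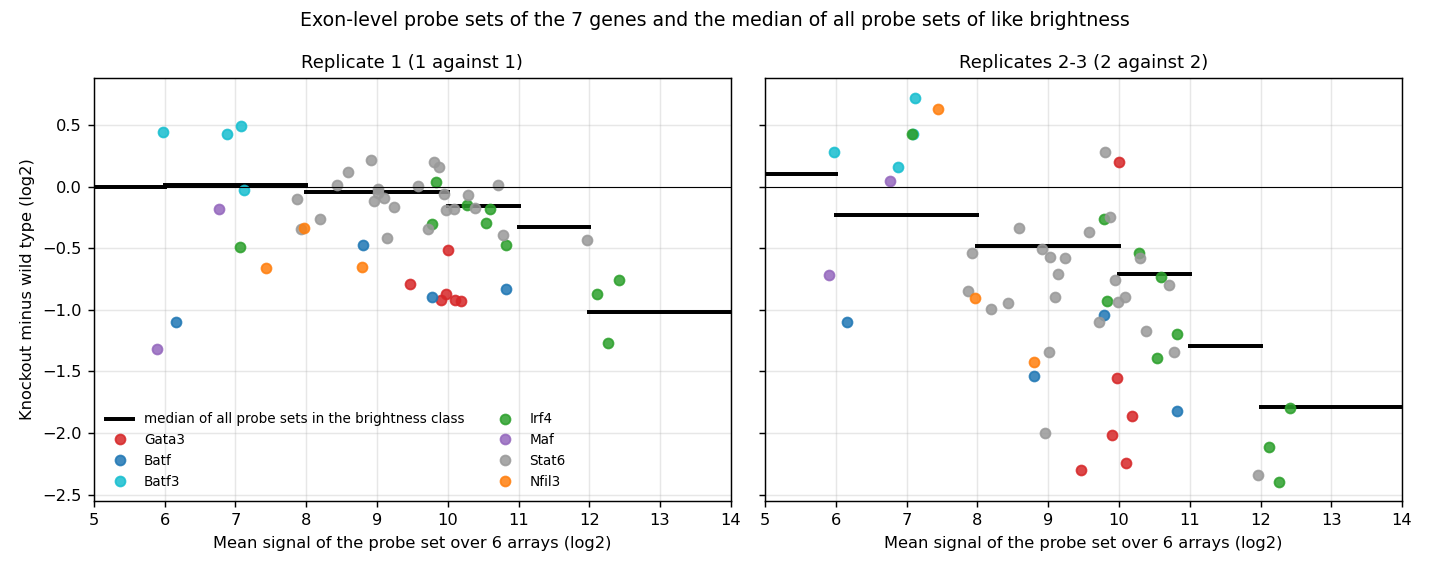
Knockout minus wild type in log2 units (y axis) of the 53 exon-level probe sets of the 7 genes against their mean log2 signal over 6 arrays (x axis), in replicate 1 and in replicates 2-3, with black lines for the median of all probe sets in each brightness class. In replicates 2-3 the black lines drop from 0.10 to -1.79 with brightness, 5 of the 6 Gata3 points lie below their lines, and the 4 Batf3 points lie above theirs.

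In the gene-level arrays, which lacked this trend, 339 of 12485 genes passed (2.72%), 249 of them lower (1.99%). Gata3, Batf, Irf4 and Nfil3 were the 4 members (57.1%) that passed. These arrays are also part of the fit over all arrays, so the 2 sets of calls are not independent. Batf and Nfil3 were past a 2-fold decrease there, which 0.641% of all tested genes reached, and Gata3 and Irf4 were at -0.89 and -0.87. In replicates 2 and 3, Gata3, Batf and Irf4 were past that fold, as were 2.83% of all tested genes. Maf was at -0.34 (limma adjusted p = 0.213), Stat6 at -0.069 (adjusted p = 0.862) and Batf3 at -0.087 (adjusted p = 0.817). In replicate 1, with 1 array a genotype and no test, 0.304% of genes were at or past a 2-fold decrease, and Gata3 and Batf, both at -0.82, were not among them.

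Genes around these factors were described from lists of Th2 biology. Of 10 tested genes on a list of Th2 cytokines and receptors, which also held the transcription factor gene Crem, 9 were lower. Among the 10, 4 passed, all lower. Of all tested genes, 63.5% were lower and 0.489% passed as lower. The list median was -0.79 over all arrays and -0.67 in replicates 4 and 5, beside medians of all tested genes of -0.097 and -0.010. Il13, the cytokine of mucus and airway responses, was at -1.18 ± 0.14 (SE, limma adjusted p = 0.00765) and passed without each array. Il24, an interleukin-10 family cytokine, was at -2.17 ± 0.32 (SE, limma adjusted p = 0.0173) over all arrays and -3.07 in replicates 4 and 5. Its call over all arrays was lost without WT2, WT3, WT5, KO4 or KO5, with adjusted p up to 0.0853, and held in 10 of 11 alternative settings. Il4 was at -0.89 ± 0.17 (SE, limma adjusted p = 0.0470), with -1.28, -1.18 and -0.41 in the 3 sets. The call was lost without any 1 array except WT5 or KO3, and with every array in use it held in 5 of 10 alternative settings. In replicates 4 and 5 alone it did not pass (adjusted p = 0.218). The fourth gene to pass was Ccr8, a chemokine receptor of Th2 cells, at -0.81 ± 0.15 (SE, limma adjusted p = 0.0470) and -1.12 in replicates 4 and 5 (adjusted p = 0.00465). Its call was kept without WT1, KO1 or KO3 and lost without each of the other 7 arrays, with adjusted p up to 0.185. With every array in use Ccr8 passed in 3 of 11 alternative settings. Il5 was too dim to be tested.

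Among the signals into the program, Il2ra and Rbpj passed over all arrays, both lower, out of 12 tested genes that were all lower. The shares of all tested genes were 0.489% for passing as lower and 63.5% for a lower value. The list median was -0.35 over all arrays. It was -0.16 in replicate 1, -0.87 in replicates 2 and 3, where the brightest 5% of all genes had a median of -0.78, and -0.069 in replicates 4 and 5. Il2ra, the high-affinity interleukin-2 receptor chain, was at -1.10 ± 0.18 (SE, limma adjusted p = 0.0275) and at -0.73 in replicates 4 and 5 (adjusted p = 0.0461). Rbpj, the DNA-binding partner of Notch, was at -0.84 ± 0.15 (SE, limma adjusted p = 0.0320) and at -0.61 in replicates 4 and 5 (adjusted p = 0.0353). Over all arrays the Il2ra call was lost without WT1, WT2, WT3, WT5, KO1, KO4 or KO5 and the Rbpj call without every array but KO3, with adjusted p up to 0.139. With every array in use Il2ra passed in 7 of 11 alternative settings, at -1.10 to -0.68 (the latter after cyclic loess), and Rbpj in 5 of 11, at -0.84 to -0.45 (the latter with the median of probe sets and quantile normalization). Il4ra, the receptor upstream of STAT6, had differences of -0.67, -1.80 and -0.0088 in the 3 sets and did not pass (-0.86, adjusted p = 0.209). Like Stat6, Il4ra was lower in replicates 2 and 3 and almost unchanged in replicates 4 and 5. In replicate 1 it was lower too, where Stat6 was at -0.11. The brightest 5% of tested genes had medians of -0.78 in replicates 2 and 3 and -0.048 in replicates 4 and 5.

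Relatives of the 7 factors and factors of other helper fates showed few changes. Of all tested genes, 63.5% were lower, 12.8% were lower at an unadjusted limma p under 0.05 and 0.585% passed in either direction. Of 21 tested AP-1, MAF and IRF relatives, 13 were lower and 0 passed in either direction, with a median of -0.043. Of these 3 were lower and 2 higher at an unadjusted limma p under 0.05. Junb, a dimer partner of BATF, was at -0.043 (adjusted p = 0.857), with a sign that turned under quantile normalization, cyclic loess and the median of probe sets, and Irf3, the member of smallest p, was at -0.48 (adjusted p = 0.132). Of 10 GATA and STAT paralogs 6 were lower and 0 passed, with 2 lower at an unadjusted limma p under 0.05, and Stat5a had the smallest p at -0.62 (adjusted p = 0.198). Of 13 other Th2 regulators 11 were lower and 0 passed, with 4 lower at an unadjusted limma p under 0.05. Satb1, a chromatin organiser of the cytokine locus, was at -0.98 over all arrays (adjusted p = 0.173) and -0.068 in replicates 4 and 5. Among 10 tested factors of other helper fates 1 passed, Id2, an inhibitor of E proteins, at -0.97 ± 0.16 (SE, limma adjusted p = 0.0306) and -0.85 in replicates 4 and 5 (adjusted p = 0.0143). Its call over all arrays was lost without any 1 array except KO2 and KO3, with adjusted p up to 0.124, and with every array in use it held in 7 of 11 alternative settings. Tbx21, which encodes the Th1 factor T-bet, was at -0.075 (adjusted p = 0.694), a value whose sign turned under quantile normalization and cyclic loess.

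**Figure D4:**
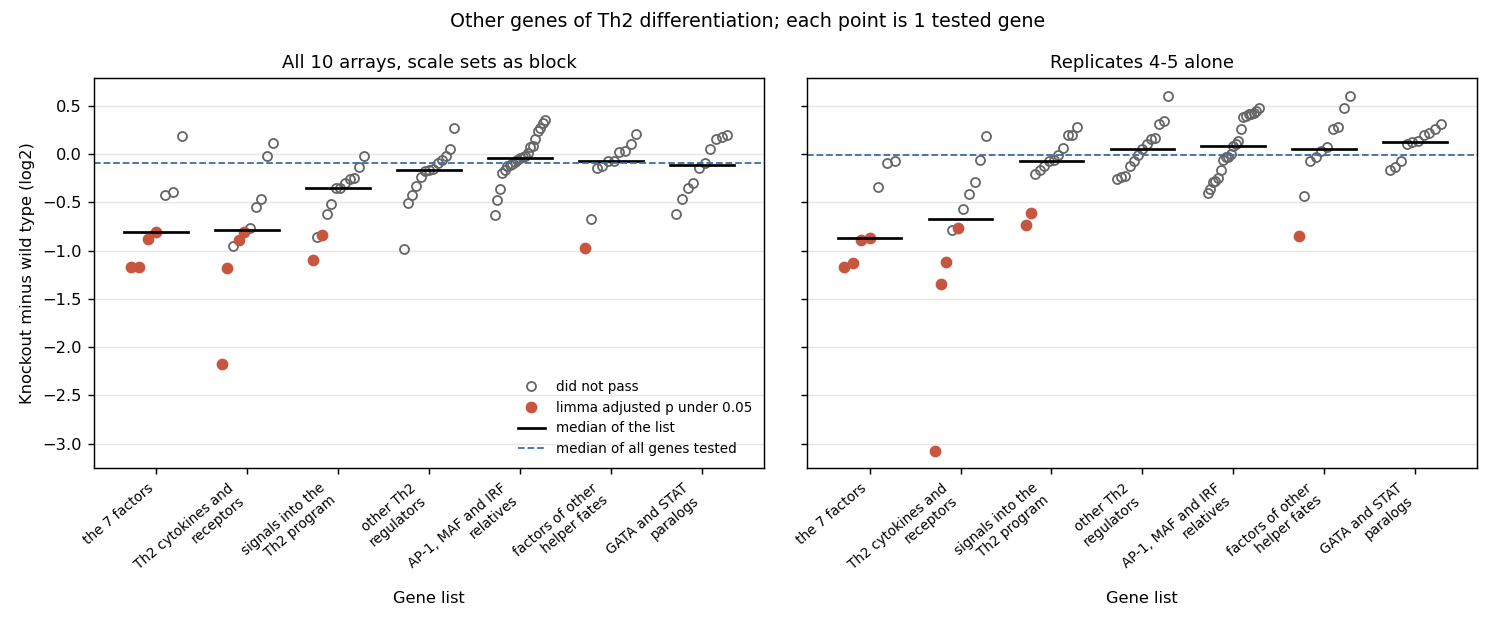
Knockout minus wild type in log2 units (y axis) of each tested gene in 7 gene lists (x axis), over all 10 arrays and in replicates 4-5 alone, with filled points for a limma adjusted p under 0.05, black lines for list medians and a dashed line for the median of all tested genes. The 7 factors and the Th2 cytokines and receptors (a list that also holds Crem) have medians of -0.80 and -0.79 over all arrays. The other lists lie between -0.35 and -0.043.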

How the data were processed

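Expression of CD3+ T cells of 10 mice was measured on Affymetrix arrays. The authors deposited log2 values made with RMA, as the submitters' processing notes name it. Its version and any further steps were not stated there. An exon-level table (241576 probe sets) held replicates 1 to 3 and a gene-level table (35556 probe sets) held replicates 4 and 5. Which arrays were normalized together was not stated either, and no level was compared across the tables.

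Probe sets naming 1 gene were kept (212097 and 21789), with symbols updated through RefSeq (GRCm38.p6). A gene's value was the mean of its exon-level probe sets and its brightest gene-level probe set. Genes in the dimmest 30% of either table by mean log2 were not tested. Knockout was compared with wild type in R 4.3.3 with limma 3.58.1 (lmFit, eBayes, 2-sided, Benjamini-Hochberg over all tested genes, threshold 0.05), with the 3 scale sets as fixed block. The fits were also run on simulated data with known changes, in which a gene's spread was the same in every array. Such data lack the deviation of KO3, so they cannot show how the fits deal with it.

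The 7 members, the lists, the block and the rule for named genes were chosen with earlier results of these data known. The rule named the members, Klf13, up to 3 passing genes per list by p or else its gene of smallest p, Il4, Il13, Tbx21, Junb and Il4ra, and the 3 genes most like each member. Ccr8, Cd3g, Kit, Ly6g, Lyz2, Mpo, S100a8, S100a9 and single probe sets were picked after their values were seen. Alternatives were other normalizations, summaries, filters, blocks and moderation, and leaving out each array. Cyclic loess was added after seeing the data. Precision is limited by having 5 arrays per genotype.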

Additional observations from a re-analysis of the deposited data

Results flagged for a closer look

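The difference of each knockout array from the wild-type mean of its scale set was examined in 20 genes named above, over 5 knockout arrays each, for an array far from the other 4. For 5 independent values of like spread, chance marks about 1 in 20 such groups, and 3 were marked. Here the values came from 3 scale sets and the genes shared arrays, so that rate may not hold. For Maf, KO1 was at -0.75, while the other knockout arrays were at -0.40 to -0.28. For Id2, an inhibitor of E proteins, KO3 was at -1.64, against -0.90 to -0.65 in the others. For Junb, a dimer partner of BATF, KO3 was at 0.38, whereas the others were at -0.20 to -0.10. KO1 is the single knockout array of its scale set, and KO3 is the array with the narrow interquartile range given above. The part of either array's quality in these values was not tested.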

How the results depend on the processing

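Over all members and alternatives to the fit over all arrays, 112 values kept direction and side of the threshold, 33 lost the call, 1 gained it and 0 changed sign. Batf3, Maf and Stat6 are in this tally but had no call to lose. Gata3, Batf, Irf4 and Nfil3 passed in 10, 10, 5 and 3 of 11 alternatives with every array in use. With 1 array left out they passed in 10, 8, 4 and 1 of 10 fits. Gata3 stayed at -1.25 to -0.87 and Batf at -1.16 to -0.93 with every array in use, and both passed in 10 of 11 alternatives. The exception was the table as block, which leaves the offset of replicate 1 in the residual: adjusted p was then 0.446 for Gata3 (-1.17), 0.466 for Batf (-1.16) and 1.00 for Irf4 (-0.88) and Nfil3 (-0.80), and 4 genes passed in place of 73. Irf4 did not pass after quantile normalization (-0.63), cyclic loess (-0.49), the median of exon-level probe sets (-0.80) or that median with quantile normalization (-0.61). Nfil3 did not pass in those settings (-0.69, -0.65, -0.80 and -0.69), with array medians subtracted (-0.78) or with trend and robust moderation (-0.80). The median of probe sets left 31 genes past the threshold, 37 with quantile normalization, and moved the count past 2-fold in replicate 1 from 73 to 182. Cyclic loess called 67 genes, 46 lower and 21 higher, against 61 and 12. Same-numbered arrays deviated with a correlation of -0.42 in replicates 2 and 3 and -0.24 in replicates 4 and 5. Each value rests on 2 arrays a genotype, so it cannot decide whether the numbers pair the samples. With the replicate block in place of the scale sets, 23 genes passed, Gata3 and Batf among them, but not Irf4 (-0.88, adjusted p = 0.0547) or Nfil3 (-0.80, adjusted p = 0.103); replicates 2 and 3 then called 85 genes and replicates 4 and 5 called 660. Trend and robust moderation called 517 in replicates 4 and 5.

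Leaving out 1 array gave 12 (without KO4) to 362 genes (without KO3) over all arrays, 1 to 9608 in replicates 2 and 3, 193 (without KO4) to 529 (without WT5) in replicates 4 and 5, and 0 to 6384 for the variation between sets, the highest of these without KO2. With 1 array left in a group, that array is assumed to vary like the others. Batf ranged from -1.25 to -1.04, Irf4 from -0.98 to -0.82, Maf from -0.45 to -0.34 and Nfil3 from -0.91 to -0.73. In replicates 4 and 5, Stat6 turned to 0.041 (lowest -0.18) and Batf3 to 0.028 (lowest -0.20) without 1 array. Tbx21 turned to 0.036, 0.096 and 0.052 after quantile normalization, cyclic loess and the median with quantile normalization. Junb turned to 0.040, 0.084 and 0.13 in the same settings, to 0.0073 with the median alone, and ranged from -0.15 to 0.020 without 1 array. The scaling alternatives moved the median of all genes by less than 0.1.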
